A study of Mus musculus with 419 samples.

Results

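The transcription factors OCT4, encoded by Pou5f1, and SOX2 hold embryonic stem cells in the pluripotent state, and 8 further genes of that state are described here with them: Sall4, Utf1, Tdgf1, Lin28a, L1td1, Trim28, Rif1 and Mybl2. The 10 genes were listed by name, and all 10 were found among 11002 autosomal genes that passed the minimum value. They came from 419 single cells in G1 of the female hybrid mouse embryonic stem line F1-21.6, in which each autosome pair has 1 copy from strain 129 (129Sv) and 1 from CAST (Cast/EiJ). The cells were grown without feeder cells on Laminin-511 in serum with leukemia inhibitory factor, and RNA was sequenced cell by cell with RamDA-seq, which covers whole transcripts of total RNA and uses no molecular identifiers, in a study of transcriptional bursting. The only comparison inside the design is between the 129 and CAST alleles of a cell. All cells carry the same genotype and treatment, the line is a single one, and no separate cultures are named, so the 419 cells count as 1 sample and no p-value was made from them.

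OCT4 and SOX2 bind side by side at enhancers of many stem cell genes, their own included, and keep them active. SALL4 is a zinc finger factor that works beside them, UTF1 is a chromatin-bound product of a direct target gene, and TDGF1, also called Cripto, is a membrane co-receptor for the signalling protein Nodal. LIN28A blocks maturation of the let-7 microRNAs, L1TD1 is an RNA-binding protein derived from a retrotransposon, TRIM28 brings silencing enzymes to retroviral sequences, RIF1 sets replication timing and telomere protection, and MYBL2 drives cell cycle genes.

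Levels are the authors' scaled values, which are whole numbers but not read counts, summed over both alleles. The two-allele total ranged from 698363 to 1477656 per cell with a median of 925852, and depth in reads is unknown. Spreads written as ± are SDs over the 5 sequencing lanes, which hold 88, 83, 82, 80 and 86 cells and may differ for technical reasons. All 95 index pairs were used in more than 1 lane, the 419 pairs of index and lane were all different, and 0 cells held values identical to those of another cell. The summed level of 8 embryonic stem markers ranged from 4 to 4442 with a median of 2317, and all 8 had a mean of 1 or more. Among lists of markers of other states, the median sum over cells was 22 for trophectoderm, 18 for germ cells, 15 for neural cells, 6 for primitive endoderm, 2 for fibroblasts, 2 for mesendoderm and 0 for the 2-cell state. The formative genes summed to 0 to 742, with a median of 103.5 in the 404 cells with Pou5f1 of 24 or more. The highest means in these lists were those of Dnmt3b at 116, Tfap2c at 28.3, Nes at 23.2 and Col1a1 at 18.9. Cdx2 and Elf5, Gata6 and Sox17, Pax6 and Mesp1 had means under 1.

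The promoters of 4 of the genes are shown because their levels part in the cells lowest in Pou5f1, described further on. Each runs from 250 bases before to 50 after the RefSeq start on GRCm38.p6, 5′ to 3′ on the gene's strand: Pou5f1 at chr17:35505782-35506081 (+), Sox2 at chr3:34649745-34650044 (+), Tdgf1 at chr9:110946109-110946408 (-) and Lin28a at chr4:134018767-134019066 (-). The Sox2 window lies wholly upstream of the start of its GENCODE transcript row. Capitals mark matches on either strand to the GC box GGGCGG or the CCAAT box CCAAT.
Pou5f1: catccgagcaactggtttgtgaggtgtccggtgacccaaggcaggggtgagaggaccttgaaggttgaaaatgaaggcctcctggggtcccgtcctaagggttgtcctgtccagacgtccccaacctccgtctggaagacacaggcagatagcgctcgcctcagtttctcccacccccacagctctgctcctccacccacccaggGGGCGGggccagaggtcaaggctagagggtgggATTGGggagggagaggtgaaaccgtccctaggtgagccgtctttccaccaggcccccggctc
Sox2: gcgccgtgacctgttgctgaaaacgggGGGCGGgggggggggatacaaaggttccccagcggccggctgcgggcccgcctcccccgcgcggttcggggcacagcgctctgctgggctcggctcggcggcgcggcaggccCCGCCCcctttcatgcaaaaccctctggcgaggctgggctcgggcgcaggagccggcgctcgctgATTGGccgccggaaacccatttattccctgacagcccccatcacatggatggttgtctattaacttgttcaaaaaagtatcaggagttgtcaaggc
Tdgf1: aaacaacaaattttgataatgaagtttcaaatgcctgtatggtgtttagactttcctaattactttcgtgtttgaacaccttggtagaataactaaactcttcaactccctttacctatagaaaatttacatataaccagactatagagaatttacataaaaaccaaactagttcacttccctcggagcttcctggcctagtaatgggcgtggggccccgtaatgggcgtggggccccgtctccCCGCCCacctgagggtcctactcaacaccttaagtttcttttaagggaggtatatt
Lin28a: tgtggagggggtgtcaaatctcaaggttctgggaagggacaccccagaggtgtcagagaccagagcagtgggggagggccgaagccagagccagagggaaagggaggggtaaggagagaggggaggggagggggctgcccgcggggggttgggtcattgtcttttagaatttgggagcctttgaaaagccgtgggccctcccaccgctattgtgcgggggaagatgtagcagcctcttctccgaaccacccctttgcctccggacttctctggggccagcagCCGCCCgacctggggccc
A GC box stood in all 4 windows, once in Pou5f1, Tdgf1 and Lin28a and 2 times in Sox2, against 35.7% of 32851 RefSeq promoters of the same length. A CCAAT box stood once in Pou5f1 and once in Sox2, against 37.4% of all promoters. The octamer ATGCAAAT, present in 1.74% of all promoters, the SOX core CATTGTT, in 3.78%, and the TATA box TATAAA, in 13.6%, were matched in 0 of these windows. The same 3 were matched in 0 of the windows of Utf1, L1td1, Trim28 and Mybl2, which completes the 8 members that RefSeq matched. In those windows the GC box was matched 4 times in Utf1, 4 in Mybl2, 2 in Trim28 and 0 in L1td1. The CCAAT box was matched in 0 of them. The windows are short, and these letters say nothing about binding.

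The 10 members had 49 transcript rows, of which 33 carried at least 1% of their gene's value. Each gene is described by its main row, the one with the largest sum over both alleles. Per kilobase of that row the mean level ran from 362 ± 13.6 for Trim28 down to 27.7 ± 1.37 for Rif1. Mybl2 followed Trim28 at 147 ± 5.18, with Utf1 at 136 ± 6.75, Tdgf1 at 132 ± 6.24 and Pou5f1 at 130 ± 6.89. Lin28a stood at 83.1 ± 8.92, Sall4 at 73.6 ± 2.73, L1td1 at 62.2 ± 5.38 and Sox2 at 28.8 ± 2.08. Trim28 stood apart from all others. In the run of Mybl2, Utf1, Tdgf1 and Pou5f1 each neighbouring pair differed by less than its summed lane SDs, as did Lin28a and Sall4, and Sox2 and Rif1. All 10 lay above the 86th percentile of level per kilobase.

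**Figure D1:**
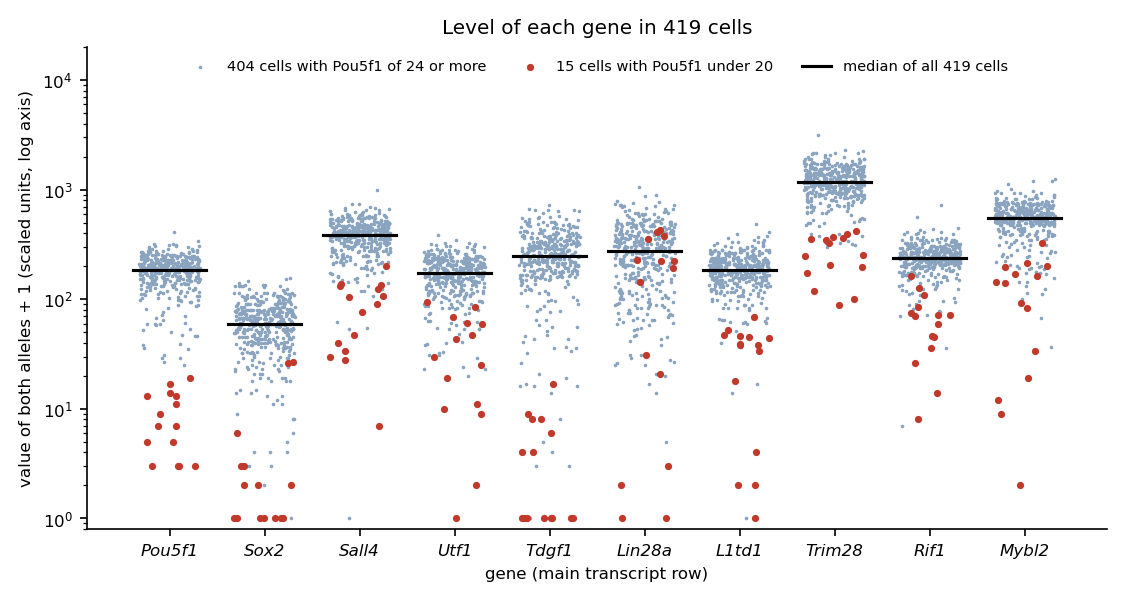
Level of each gene in 419 cells: points are cells, the value of both alleles plus 1 is on a log axis, and black bars are medians over all cells. The 15 red cells, with Pou5f1 under 20, lie near the bottom for Sox2 and Tdgf1 and at a median of 190 for Lin28a, where 2 of them are at 0 and below every other cell.

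Pou5f1 (a row of 1362 nucleotides, ENSMUSG00000024406.16, chr17:35506018-35510772, + strand) had a lowest cell at 2, quartiles of 144 and 220.5 and a highest of 413. It was above 0 in all 419 cells. The 129 value ran from 1 through a median of 92 to 206, and the CAST value from 1 through 92 to 233. In 403 cells the alleles differed by at most 7.69% of their sum, and in 106 of these they were equal. In the other 16 cells they differed by 50.4% to 76.4%, and no cell lay between. The CAST value exceeded the 129 value in 13 of these and the reverse held in 3, and the 16 came from all 5 lanes. The cell just past the gap held 60 from 129 and 182 from CAST, and the most uneven one 17 and 127. Their summed level, with a median of 195.5 against 184 in the 403 cells, was ordinary.

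By the rule used for all genes, a row whose alleles lie within 10% of their sum in at least 90% of cells with a value of 20 or more gives no allele information, and the main Pou5f1 row met it in 96.0% of 404 such cells. The second Pou5f1 row, of 435 nucleotides, met it in 100% of its own such cells. Pou5f1 was 1 of 10 members without allele information, and 5.94% of the 11002 genes were. Its 129 share of 49.4% is therefore given with no reading. Its intrinsic noise, which takes each allele relative to its own mean, squares their difference in each cell and divides the average by 2, was 0.0370, and 0.000176 without the 16 cells. Two-class values of this kind were looked for after the Pou5f1 cells had been seen. With at least 5 cells apart by 50% or more and at most 1% of cells in between, they occurred in 25 of 5843 genes that had 100 or more cells at 20, Pou5f1 included and with it the ribosomal protein gene Rpl24 and the proteasome gene Psmc2. The reason for the 2 classes was not tested. Of the 49 rows, 4 were alike or nearly alike; the other 2 were short rows of Sall4 and Rif1 with few values.

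The Pou5f1 row shared 22.7% of its 31-base stretches with transcripts of 5 other genes, the antisense gene Gm19553 and Gm5712 first among them. Exons of Gm19553 overlap it on the opposite strand. The sources used here do not say how the authors split such reads, so the Pou5f1 level is uncertain to that extent.

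Sox2 (2057 nucleotides, ENSMUSG00000074637.7, chr3:34650405-34652461, + strand) had a lowest cell at 0, a median of 58 and a highest of 154, and 9 cells were at 0. The 129 allele had a median of 39, and the CAST allele ran from 0 through a median of 16 to 105. The 129 value was the higher in 329 cells, the CAST value in 62, and 28 were equal, so that single cells overlap widely. The 129 share of all values was 68.0% ± 2.19, from 65.9% to 71.2% over lanes, or 2.12-fold towards 129. A share of 60% or more, or 40% or less, was counted as an allele ratio of at least 1.5-fold. Sox2 was the only member past it, 1 of the 9 with allele information, against 23.5% of 10349 genes. The 34 genes within 5 megabases of Sox2 had a median share of 50.5% and ranged from 25.2% to 66.1%.

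Only 1 Sox2 allele was above 0 in 90 cells, 75 of them 129 and 15 CAST. That is 22.0% of the cells with any Sox2 (exact binomial 95% interval 18.0% to 26.3%, counting error only). If each allele were at 0 at its own rate and independently of the other, 23.8% of those cells would show 1 allele, a value inside that interval. The other 8 members with allele information showed 1 allele in 0.239% of cells for Trim28 to 6.60% for Tdgf1. For Tdgf1 the same rule would give 10.8%, above the upper end of its interval at 9.46%. For the rest of these members the value under the rule lay inside the interval. The intervals treat cells as separate draws, so no test of independence is read from them. Sox2 lies inside an intron of the long non-coding gene Sox2ot on the same strand, with 0 exonic bases in common, so intronic Sox2ot reads over it cannot be told apart.

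**Figure D2:**
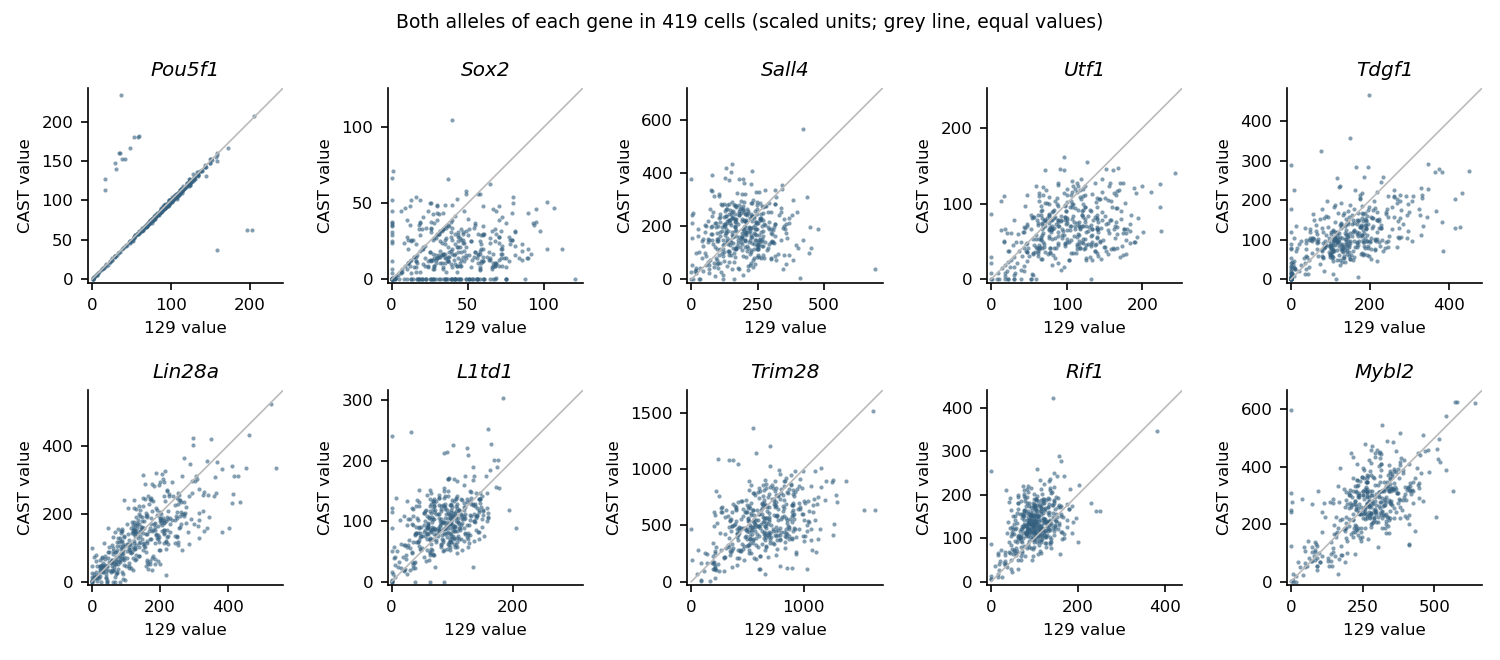
CAST value against 129 value of each gene's main row in 419 cells, in scaled units, with the grey line marking equal values. Pou5f1 cells lie on the line apart from 16, Sox2 cells spread below it with many at a CAST value of 0, and Lin28a cells follow the line loosely.

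Sall4 (5073 nucleotides, ENSMUSG00000027547.17, chr2:168748332-168767201, - strand) had a lowest cell at 0, quartiles of 288.5 and 459.5 and a highest of 987. Its alleles were near balance, with a mean of 193 for 129 and 180.2 for CAST and a 129 share of 51.8% ± 1.53. The alleles of Sall4 were weakly related: the Spearman correlation between them over 419 cells was 0.12, from -0.08 to 0.33 within lanes. In this and every other correlation both values of a cell share that cell's library, depth and scaling, and no p is given. Which cells were prepared together is unknown. The noncoding gene Gm14261 overlaps 290 exonic bases on the opposite strand and shares 5.22% of the row's 31-base stretches.

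Utf1 (1227 nucleotides, ENSMUSG00000047751.9, chr7:139943789-139945112, + strand) had a lowest cell at 0, a median of 172 and an upper quartile of 212.5. The 129 allele ran from 0 through 99 to 243 and the CAST allele from 0 through 67 to 162, and 129 was the higher in 318 cells. Its 129 share of 59.9% ± 1.74 lay just outside the 60% limit. It was inside when lane 2 or lane 3 was left out, which gave 2 members past 1.5-fold in place of 1. It reached 60.0% without the 2 cells in which chromosome 7 was read from nearly 1 allele.

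Tdgf1 (1932 nucleotides, ENSMUSG00000032494.12, chr9:110939603-110946158, - strand) had a lowest cell at 0, a median of 246 and a highest of 726, and 10 cells were at 0. The 129 share of this main row was 56.4% ± 1.60. A row of 1290 nucleotides annotated for nonsense-mediated decay, with 12.3% of the gene's value, stood at 23.8% ± 1.95, and one of 786 nucleotides at 24.0% ± 2.74. With all rows summed the share was 52.0%. Rows of 1 gene thus leaned to opposite alleles, and the row shares 17.4% of its 31-base stretches with copies such as Tdgf1-ps1 and Tdgf1-ps2.

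Lin28a (3505 nucleotides, ENSMUSG00000050966.9, chr4:134003330-134018841, - strand) had a lowest cell at 0, a median of 275 and a highest of 1050. It was the most variable member between cells, with a CV of 60.8%. Its alleles were near balance, at a 129 share of 53.0% ± 1.29, and moved together with a Spearman correlation of 0.77, from 0.70 to 0.81 within lanes. L1td1 (2942 nucleotides, ENSMUSG00000087166.9, chr4:98726748-98738480, + strand) had a lowest cell at 0, quartiles of 141.5 and 225.5 and a highest of 489, with a 129 share of 46.9% ± 0.628 and a Spearman correlation of 0.41 between its alleles.

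Trim28 (3245 nucleotides, ENSMUSG00000005566.14, chr7:13024152-13031035, + strand) ran from 88 through a median of 1171 to 3133 and was above 0 in every cell. Its main row had a 129 share of 54.8% ± 1.80. The other 9 Trim28 rows, 8 of them annotated as retained introns, ran from 34.4% to 98.7%, a wider spread than in any other member's rows with at least 1% of the gene. The row of 846 nucleotides stood at 98.7% ± 0.516, that of 783 at 97.8% ± 0.758 and that of 1004 at 88.0% ± 3.08. The row of 562 nucleotides stood at 36.8% ± 3.84 and that of 565 at 34.4% ± 2.36. The intron sequences that these rows of uneven share keep are shown, from GENCODE vM21 on GRCm38, 5′ to 3′ on the + strand. The first 2 and last 2 bases, the splice sites, are in capitals. Intron 10 lies at chr7:13029125-13029206, intron 11 at chr7:13029253-13029342, intron 13 at chr7:13029996-13030082 and intron 15 at chr7:13030376-13030454, counted along the main row.
Intron 10: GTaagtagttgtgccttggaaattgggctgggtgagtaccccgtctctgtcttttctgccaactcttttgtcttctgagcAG
Intron 11: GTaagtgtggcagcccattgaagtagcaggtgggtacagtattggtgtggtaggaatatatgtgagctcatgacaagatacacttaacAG
Intron 13: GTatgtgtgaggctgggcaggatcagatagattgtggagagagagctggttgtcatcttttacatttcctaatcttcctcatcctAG
Intron 15: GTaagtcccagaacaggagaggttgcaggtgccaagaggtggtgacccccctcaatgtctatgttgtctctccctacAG
Intron 10, of 82 bases, is kept by the rows of 846, 1004 and 783 nucleotides, and intron 11, of 90 bases, by the first 2 of these. Both are also kept by a row of 767 nucleotides, whose share was 47.8% ± 5.49, so the 129 lean was not seen in every row that keeps them. Intron 13, of 87 bases, is kept by the row of 562 nucleotides and intron 15, of 79 bases, by that of 565, the 2 rows with the lowest shares. The row of 851 nucleotides, with 18.1% of the gene's value, keeps none of these introns and stood at 40.5% ± 1.12. Rows with opposite leans overlap in their exons, and the sources used here do not say how the authors divided reads between rows. Summed over all 10 rows the Trim28 share was 51.9%. No strain sequence was used here, so strain variants in these introns were not tested.

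**Figure D3:**
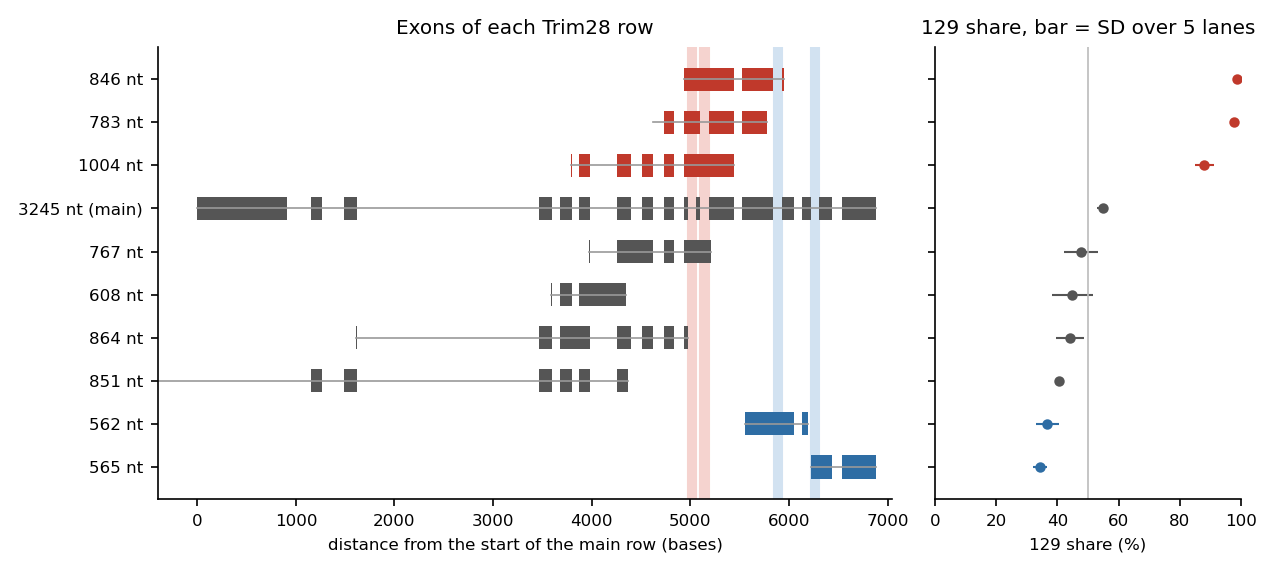
Exons of the 10 Trim28 rows against distance from the start of the main row (left), named by their length in nucleotides, and their 129 share with the SD over 5 lanes (right), red at 60% or more and blue at 40% or less. Shading marks introns 10 and 11 (pink), kept by all 3 red rows in part or whole, and introns 13 and 15 (blue); the first exon of the row of 851 nucleotides lies beyond the left edge.

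Rif1 (8509 nucleotides, ENSMUSG00000036202.16, chr2:52072832-52122383, + strand) ran from 6 through a median of 236 to 729. CAST was the higher allele in 321 cells and 129 in 96, and the 129 share of 43.0% ± 1.26 was the lowest of the members. Its retained-intron row of 2789 nucleotides, with 31.2% of the gene's value, stood at 53.9% ± 2.05, and all rows summed at 46.5%. Mybl2 (3651 nucleotides, ENSMUSG00000017861.11, chr2:163054687-163084688, + strand) ran from 1 through a median of 555 to 1260. Its share was balanced at 50.1% ± 1.51, while its retained-intron rows of 902 and 624 nucleotides leaned to 129 at 62.4% ± 3.20 and 68.4% ± 3.59. The Mybl2 row shares 25.3% of its 31-base stretches with Gm3320 and 1 further gene, so its level is uncertain to that extent.

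Variation between cells was split into intrinsic noise, by which the 2 alleles in 1 cell part, and shared noise, by which both rise or fall together. Shared noise falls below 0 where the alleles tend to move in opposite directions, and its median over the 5989 genes measured was -0.0271. How much of the intrinsic noise comes from sampling or from assigning reads to alleles was not tested. Among the 9 members with allele information the median intrinsic noise was 0.116 and the median shared noise 0.0828. Over the 2348 genes with at least 20 per allele these medians were 0.339 and 0.000731. Without the 15 cells lowest in Pou5f1, described next, the medians of shared noise were 0.0588 for the members and -0.00878 for those genes. Shared noise was not adjusted for level, and the members were not matched to genes of like mean. Because intrinsic noise falls with level, each gene was also set against the running median of genes of like mean, as a log2 residual. The members' median residual was -0.36, from -0.41 to 0.07 within lanes. A residual of 1 or more was reached by 1 member, Sall4 at 1.01, against 5.63% of 5989 genes, and 0 of 9 members reached -1 or less, against 8.22%. Sall4 lay at the limit: its residual ran from 0.40 to 1.14 over 11 alternatives and was under 1 in 8, among them all rows summed, no scaling of cells, and lane 3, 5 or 6 left out. Sox2, with the highest intrinsic noise of the members at 0.490, had a residual of 0.09, so it was ordinary for its level. Rif1 at -0.89 and L1td1 at -0.82 lay lowest. Trim28 had a residual of 0.35 in its main row and -1.18 with all its rows summed, so its sign depends on the rows used.

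Shared noise was highest in Lin28a at 0.321 (0.217 to 0.405 within lanes) and in Tdgf1 at 0.208 (0.132 to 0.267). Mybl2 followed at 0.103, L1td1 at 0.0936 and Utf1 at 0.0828. Sox2 at 0.0705 (-0.00282 to 0.119 within lanes), Trim28 at 0.0698 and Rif1 at 0.0658 were lower, and Sall4 was lowest at 0.0276. Lanes lay on both sides of 0 for Sall4 and, narrowly, for Sox2. The Spearman correlation between the alleles had a median of 0.36 over the 9 members and of -0.03 over the 2348 genes, again not adjusted for level. It was 0.57 for Tdgf1, 0.54 for Mybl2 and 0.15 for Sox2. For the sum of both alleles, the residual of the squared CV was 1 or more in Lin28a (2.02) and Tdgf1 (1.72), 2 of 10 members against 19.2% of 6325 genes. With all rows of a gene summed the count was 4, since Mybl2 (1.23) and Sall4 (1.17) reached it too. At -1 or less were 0 members against 12.8%. The members' median was 0.70, with Rif1 lowest at 0.22 and Pou5f1 at 0.44.

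**Figure D4:**
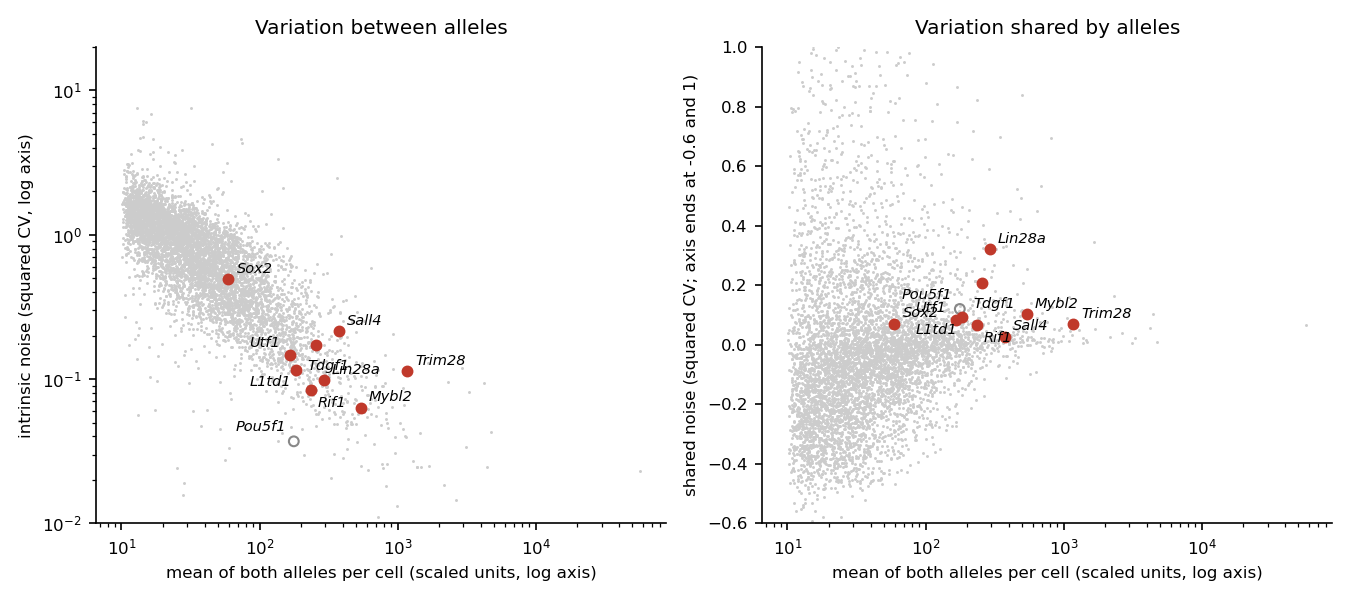
Intrinsic noise (left, log axis) and shared noise (right) against the mean of both alleles per cell (log axis) for 5989 genes (grey; those beyond the axis limits are not drawn) and the members (red; Pou5f1 open, since its alleles carry no information). Members with allele information follow the grey band on the left, and Pou5f1, at 0.0370, lies below it. Lin28a at 0.321 and Tdgf1 at 0.208 stand highest among the members on the right.

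Pou5f1 was under 20 in 15 cells, 3.58% of 419 (exact binomial 95% interval 2.02% to 5.84%, counting error only). The limit was set after the values had been seen: the highest cell inside it was at 18 and the lowest outside at 24. Lanes 2 to 6 held 6, 1, 3, 2 and 3 of them. The members parted widely in these cells, which are described without a test because a member chose them. Tdgf1 had a median of 0 and a highest of 16, against a median of 253 in the other 404 cells, and Sox2 a median of 1 and a highest of 26 against 60. All 15 lay under the 5th percentile of the other cells for Tdgf1, L1td1 and Trim28, and 14 did for Sall4, 13 for Sox2 and Rif1, and 12 for Utf1 and Mybl2.

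Lin28a was the exception in size. Its median in the 15 cells was 190, 69.0% of the 275.5 in the others, its highest 429, and 6 cells lay under the 5th percentile, 2 of them at 0. The remaining members kept an intermediate level: Rif1 had a median of 70 (29.4% of the others'), Mybl2 one of 141 (25.1%) and Sall4 one of 89 (22.9%). Trim28 had a median of 252 (21.2%), L1td1 one of 37 (19.9%) and Utf1 one of 29 (16.6%). The genes thus fell into those near 0, those at a lower level, and Lin28a.

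The same 15 cells had a two-allele total from 820480 to 1083168 with a median of 930494, against 925707 in the others, and 28702 rows above 0 at the median against 29457.5. Of single genes named after their values were seen, the glycolysis enzyme gene Gapdh had a median of 863 against 907, and the actin genes Actb and Acta2 had 8962 against 4136.5 and 463 against 0. The embryonic stem marker sum, which includes Pou5f1, Sox2 and Utf1 themselves, was 4 to 1491 with a median of 104, against 2350. Of its other genes, Nanog had a median of 0 against 144 and Esrrb one of 0 against 525. Of the other marker lists, the 6 fibroblast genes summed to 1 to 2862 (median 58) against 0 to 495 (median 2), although 4 of them, Col1a2, Col3a1, Dcn and Lum, had means under 1 over all cells. Col1a1 alone ran from 0 to 2505 in the 15 cells, with the same median of 58, so this list rests largely on 1 gene. The 6 trophectoderm genes summed to 1 to 703 against 0 to 564, with a median 6.27 times the 22 of the other cells, and the 4 neural genes to 2 to 321 (median 90) against 0 to 428 (median 15). The 6 primitive endoderm genes summed to 0 to 123 (median 15) against a median of 6, the 5 formative genes to a median of 22 against 103.5, the 4 germ cell genes to a median of 4 against 18, the 4 mesendoderm genes to a median of 0 against 2, and the 6 genes of the 2-cell state to 0 in all 15. The keratin gene Krt8, also named after its values were seen, ran from 683 to 5998 with a median of 3334, against a median of 5 and a highest of 4031. Its partner Krt18 had a median of 1672 against 5. The part of these other programmes in the members' values was not tested.

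Over the 419 cells, the Spearman correlation was above 0 in 42 of the 45 pairs of members and above 0 in every lane in 36. The median was 0.30 and the range ran from -0.07 (Tdgf1 and Lin28a) to 0.55 (Pou5f1 and Trim28, 0.42 to 0.63 within lanes). For comparison, the median Spearman correlation of Pou5f1 with 2486 genes of at least 20 per allele was 0.05 with quartiles of -0.09 and 0.21, and that of Trim28 was 0.07 with quartiles of -0.11 and 0.23. Sall4 and Trim28 followed at 0.51, and Pou5f1 and Mybl2 at 0.46. Without the 15 cells the median over pairs was 0.23, 41 of 45 stayed above 0, and pairs of 0.3 or more numbered 12 in place of 22. Pou5f1 and Trim28 then stood at 0.50.

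Pou5f1 and Sox2, whose products act as a pair, were among the least related members. The Spearman correlation between them was 0.10, from -0.05 to 0.15 within lanes, and it was 0.00155 without the 15 cells. Pearson's r of log2(value + 1) was 0.65, and 0.30 without the 15 cells, so the log-scale value rests largely on those cells. Sox2 had its highest Spearman correlation among the members with Sall4 (0.36) and Rif1 (0.33). Lin28a had a Spearman correlation of -0.01 with Sox2 and 0.32 with Trim28.

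**Figure D5:**
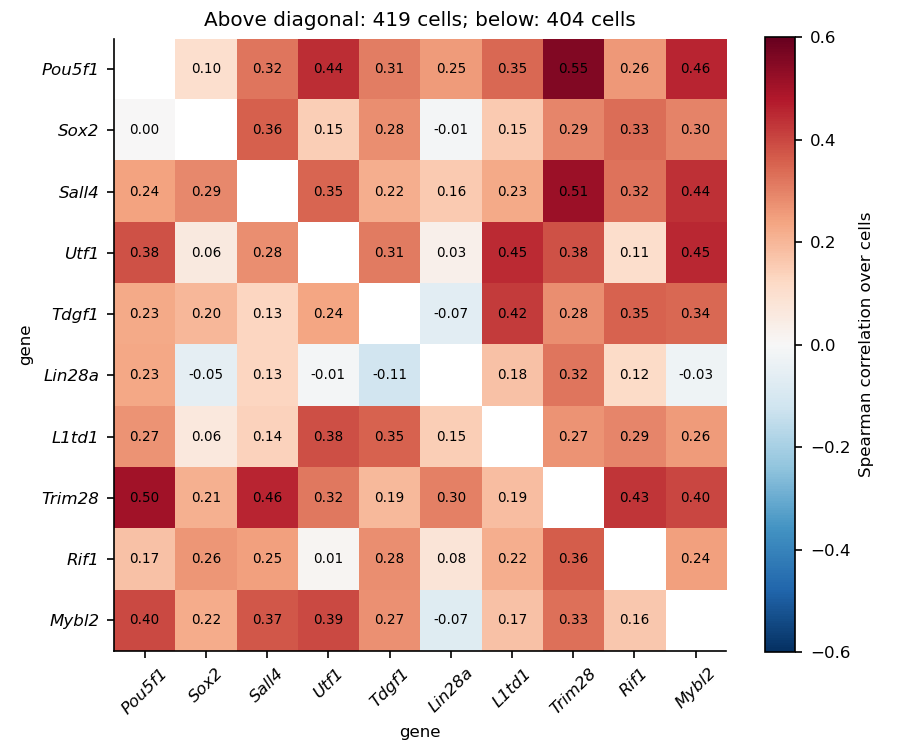
the Spearman correlation between the members' levels over 419 cells (above the diagonal) and over the 404 cells with Pou5f1 of 24 or more (below it). Pou5f1 with Trim28 is the darkest pair on both sides, at 0.55 and 0.50, and Pou5f1 with Sox2 is pale, at 0.10 and 0.00155.

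Outside the members, the genes most like Pou5f1 by Spearman correlation over the 419 cells were Akr1b3 at 0.64 (0.44 to 0.73 within lanes), Hmces at 0.60, Shmt2 at 0.60, Acp6 at 0.60 and Epop at 0.58. Akr1b3 is an aldose reductase, Shmt2 a mitochondrial serine enzyme and Epop a Polycomb partner. The X-linked orphan receptor gene Nr0b1, outside the naming rule because X rows are 0 in the 129 table and named after its value was seen, had 0.65 with Pou5f1 and 0.09 with Sox2. The genes most like Sox2 were Nanog, a homeobox factor of the same network, at 0.45 (0.21 to 0.55), then Dlc1 at 0.44, Mreg at 0.42, Ulk1 at 0.41 and Tcea1 at 0.41. Nanog had a Spearman correlation of 0.34 with Pou5f1. The differences between these values were not tested.

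The balance between alleles in a cell was at most weakly related between members. The Spearman correlation of the 129 share over cells was 0.03 to 0.12 for the 5 pairs on 1 chromosome, against -0.10 to 0.11 for 31 pairs on different ones. The largest was Sall4 with Mybl2, both on chromosome 2.

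Among 20 genes known as targets of OCT4 and SOX2, 15 of 18 measured had a squared CV residual of 1 or more, with a median of 2.17, against the 19.2% of all genes given above and a median of 0.70 in the members. Lefty1 (6.18) and Lefty2 (5.41), inhibitors of Nodal, lay highest, and Klf5 (0.42) and Dppa4 (0.18) lowest. Past 1.5-fold were 8 of 20, against 23.5% of all genes: 5 were towards 129 (10.7% of all genes) and 3 towards CAST (12.9%), among them the nuclear receptor gene Esrrb at 21.9% 129, Spp1 at 39.01%, Zfp42 at 60.1% and Tfcp2l1 at 62.5%. Esrrb lies on chromosome 12, as do Dicer1 and Lin52 in lists below, which also leaned to CAST. Tcl1, at 67.0% 129, lies there too. The dosage of the alleles of that chromosome was not tested here. The median Spearman correlation of this list was 0.32 with Pou5f1 and 0.32 with Sox2.

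The protein partners of OCT4 and SOX2, some of them subunits of nucleosome remodelling and deacetylase complexes, were close to the average gene. Their median squared CV residual was 0.16, with 3 of 21 measured at 1 or more against 19.2% of all genes, and their median Spearman correlation with Pou5f1 was 0.10. Ctr9, of the PAF1 complex, lay highest at 2.80, followed by Esrrb, also in the target list, at 2.28. The remodeller gene Smarca4 lay lowest at -1.05, next to Mbd3 at -0.89. Past 1.5-fold were 5 of 20, near the 23.5% of all genes. Among them were Esrrb at 21.9%, Nacc1 at 36.8%, Hdac1 at 38.6% and Ctr9 at 61.8% 129.

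In the let-7 pathway of LIN28A, 2 of 11 measured genes had a residual of 1 or more, near the 19.2% of all genes: Igf2bp3 (2.08) and Hmga2 (2.02), both let-7 targets. Tut7 (-0.28) and Drosha (-0.14) lay lowest, and 3 of 12 leaned to CAST past 1.5-fold, against 12.9% of all genes: Hmga2 at 29.5%, Dicer1 at 36.6% and Lin28b at 39.8% 129. Dicer1 lies on chromosome 12, like Esrrb. In the TRIM28 repressor complex 2 of 13 reached 1, again near 19.2%: Zfp57 (1.90), a zinc finger protein of imprinted regions, and the methylation factor gene Uhrf1 (1.09). Hdac1 (-0.88) and Hdac2 (-0.62) lay lowest, and 1 of 12, again Hdac1, was past 1.5-fold, against 23.5% of all genes.

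Among partners of RIF1 and MYBL2, 1 of 11 reached 1, against 19.2% of all genes: the mitotic cyclin gene Ccnb1 (1.34), followed by Foxm1 (0.59), while Ppp1ca (-1.67), a phosphatase subunit, and Rbbp4 (-1.17) lay lowest. Past 1.5-fold were 3 of 15, near the 23.5% of all genes, and all 3 were towards CAST (12.9% of all genes): Lin52 at 28.7%, Trp53bp1 at 38.0% and Ccnb1 at 39.3% 129. Lin52 lies on chromosome 12, like Esrrb and Dicer1. In Nodal signalling 7 of 15 reached 1, against 19.2% of all genes, with Lefty1 and Lefty2 again highest, and the mediators Smad4 (-0.55) and Foxh1 (-0.52) lowest. Past 1.5-fold were 2 of 14, against 23.5% of all genes: Smad3 at 32.9% and Lefty2 at 63.5% 129. None of these lists was tested as a set, and nothing is read from their counts beyond the values.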

How the data were processed

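The authors deposited 2 tables, one per allele, of 117762 transcript rows by 419 cells, and all columns matched a sample title. Per the submitters' processing notes Bowtie 1.1.2 and the build mm10 were used; the sources used here do not say how reads were assigned to alleles and rows, or scaled. Values as deposited were taken as a score: whole numbers scaled to nearly common totals, not raw counts. No count test, standard error or p-value was made, and depth in reads is unknown. Every row of the X chromosome is 0 in the 129 table.

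Rows were named from GENCODE vM21 (116919 matched; the others hold 0.360% of all values), and the row with the largest sum stands for its gene. Genes entered with a sum of at least 1000 and a value above 0 in at least 10% of cells. Rows were called alike where the squared allele difference, after a factor per cell, was under 0.5 of the sum, or nearly alike where the alleles differed by no more than 10% of the sum in at least 90% of cells with 20 or more. That left out 653 genes. Noise used cells scaled to the mean total and genes averaging at least 5 for each allele, with a share of 10% to 90%. Residuals were taken from a running median of 201 genes. No cell was left out and no doublet caller was run. Lanes were the only batch in the labels.

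All members were named. In other lists the 2 highest and 2 lowest squared CV residuals and up to 4 members past 1.5-fold were named, and for Pou5f1 and Sox2 the 5 most like genes among those averaging at least 20 for each allele. The members and lists were chosen with earlier results of these data known. Alternatives were lanes left out, other scalings and limits, all rows summed and, chosen after seeing the data, cells left out. The noise split was tested on simulated data. Python 3.11.15, numpy 2.4.6, pandas 2.3.3, scipy 1.17.1 and matplotlib 3.10.9 were used.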

Additional observations from a re-analysis of the deposited data

How the results depend on the processing

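The number of members past 1.5-fold was 1 and became 2, with Utf1 added, without lane 2, without lane 3, and, chosen after seeing the data, without cells that read the chromosome from nearly 1 allele. With all rows summed, the members' median squared CV residual was 0.99 in place of 0.70. The Pou5f1 and Sox2 correlation of 0.10 was 0.65 as Pearson's r of log2(value + 1). Chosen after seeing the data, leaving out the cells with Pou5f1 under 20 gave a Spearman correlation of 0.00155 and an r of 0.30. The causes were not tested. Leaving out 1 lane at a time moved the median intrinsic residual between -0.40 and -0.34, the median squared CV residual between 0.66 and 0.76, and the correlation between 0.08 and 0.13. The intrinsic residual of Trim28, 0.35, was -1.18 with all rows summed, and the Mybl2 share, 50.1%, crossed 50% without lane 3 (49.9%) and without lane 4 (49.6%). Without the cells low in Pou5f1 its squared CV residual was 0.14 in place of 0.44, and that of Rif1 0.08 in place of 0.22. No paired analysis was possible because there is 1 group of cells and no test. Unknown read depth limits values near 0, such as the low cells of Sox2.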
